A study of Nothobranchius furzeri with 8 samples.

Results

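The nuclear-encoded tRNAs for arginine were taken from tRNA sequencing of old and young killifish brains. Every tRNA whose name gave arginine and no mitochondrial origin was included. These were tRNA-Arg-ACG, tRNA-Arg-CCG, tRNA-Arg-TCG, tRNA-Arg-CCT and tRNA-Arg-TCT, named below without their prefix. They were 5 of the 49 nuclear anticodons, 7 of the 66 nuclear transcripts or clusters of near-identical transcripts, and 22 of the 289 nuclear tRNA genes. All 5 anticodons and all 7 transcripts had enough reads for the tests.

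A tRNA brings an amino acid to the ribosome and pairs with the codon through its anticodon. Arginine is read in a box of codons that begin with CG, called CGN here, and by the codons AGA and AGG, called AGR here. In the CGN box, Arg-ACG reads CGU, CGC and CGA once its first anticodon base has been changed to inosine, Arg-CCG reads CGG, and Arg-TCG reads CGA. In the AGR box, Arg-TCT reads AGA and Arg-CCT reads AGG. In the cytosol the same enzyme, arginyl-tRNA synthetase, loads arginine onto all of them. A separate enzyme serves the mitochondrial arginine tRNA. In mice, a nervous system form of Arg-TCT is known, and its loss has been linked to ribosome stalling at AGA codons. Whether either Arg-TCT transcript of the fish corresponds to it was not examined.

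The study compared 4 old brains (39 wph, weeks post hatching) with 4 young brains (5 wph) of the African turquoise killifish, with 2 males and 2 females at each age and no further treatment. Each library came from the brain of a single fish, the methods name MZM-0410 as the strain unless another is stated, and the reference tRNAs carry the name of the GRZ strain. The labels also word the old age as 39 to 40 weeks. After oxidation, a tRNA that carried an amino acid is read with the 3′ end CCA, and one that did not is read with CC. The charged share is therefore CCA reads as a percent of CCA plus CC reads.

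The libraries held 717858 to 3112101 reads, of which 47262 to 216176 belonged to the nuclear arginine tRNAs. Replicates of an age differed by far more than counting noise, with a chi-square per degree of freedom of 56.9 or more for every pair of libraries. Charged shares of the 5 anticodons rested on 3292 to 72542 reads in a brain, and their 95% Wilson intervals, which cover counting error only, reached at most 1.62 percentage points to either side. The p-values below therefore rest on the spread between libraries. With a single library from each fish, differences between fish and differences in preparation cannot be told apart. tRNA counts hold no markers of cell types, so the tissue label could not be checked, and in whole brains fewer cells of a type cannot be told apart from less tRNA per cell. Old female 2 had an arginine charged share of 59.2%, against 34.4 to 46.4% in the other old brains, and values without it are given where they change a call. This brain was singled out by a value that is itself under test. The p-values without it therefore describe these brains and are not independent tests.

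The arginine tRNAs were not equally abundant. Arg-ACG made up 35.5 ± 2.40% of all nuclear arginine reads in old brains and 36.4 ± 1.17% in young brains (SD, n = 4 each). Arg-CCG was the rarest, with 6.12 ± 1.04% in old brains and 6.85 ± 0.922% in young brains. The gene numbers followed a different order, since Arg-ACG, Arg-CCT and Arg-TCT have 6 genes each, Arg-TCG has 3 and Arg-CCG has 1. Reads per gene, relative to the mean over all arginine genes, were 1.61 in old and 1.51 in young brains for Arg-TCG, and 0.520 in old and 0.614 in young brains for Arg-CCT. A sequenced tRNA gives a read from its 3′ end, so no length scaling was applied between tRNAs.

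The size of the arginine pool differed between the ages by less than the spread between brains. It took 7.21, 7.50, 6.60 and 7.68% of nuclear reads in old male 1, old male 2, old female 1 and old female 2, and 7.56, 7.20, 7.70 and 7.69% in young male 1, young male 2, young female 1 and young female 2 (all further values per brain keep this order). The groups overlapped, and the difference of old minus young was −0.288 percentage points (exact permutation p = 0.286). It was −0.071 points without old female 1 and −0.433 points without old female 2. The split between the codon boxes did not separate the ages either, with the AGR box at 36.4 ± 2.38% of arginine reads in old brains and 36.1 ± 1.08% in young brains (exact permutation p = 0.80).

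Within the AGR box the estimates for the anticodons ran in opposite directions. Arg-TCT, the reader of AGA, took 1.60, 1.50, 1.66 and 1.66% of nuclear reads in old brains, against 1.38, 1.46, 1.49 and 1.49% in young brains. Every old brain lay above every young brain (exact two-sided permutation p = 0.0286, the smallest that 4 against 4 brains allow, and 0.0571 without any 1 of the young brains). The lowest old brain, at 1.4998%, was only just above the highest young brain, at 1.4905%. Arg-TCT was the only arginine anticodon whose groups did not overlap, 1 of 5, while 17.0% of all nuclear anticodons tested did not overlap. Arg-CCT, the reader of AGG, took 0.938, 1.04, 0.934 and 1.21% of nuclear reads in old brains and 1.39, 1.10, 1.37 and 1.19% in young brains. Old female 2 lay above the lower 2 young brains, so these groups overlapped. As a percent of arginine reads, Arg-TCT was 22.2 ± 2.14% in old and 19.3 ± 0.784% in young brains (exact permutation p = 0.0571), and Arg-CCT was 14.2 ± 1.13% in old and 16.7 ± 1.60% in young brains (exact permutation p = 0.0857).

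**Figure D1:**
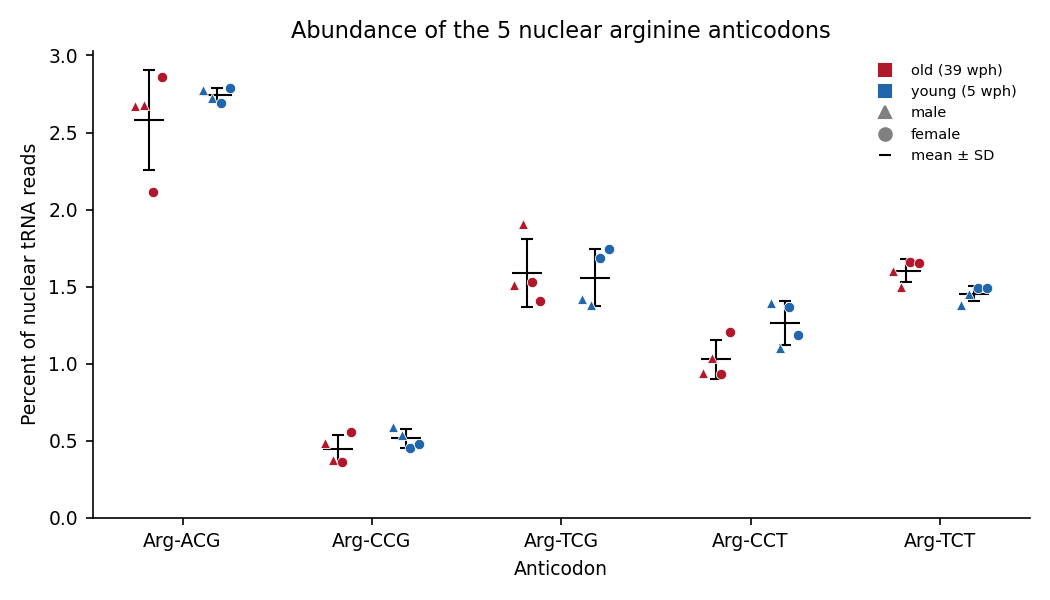
Percent of nuclear tRNA reads (y axis) for each of the 5 arginine anticodons (x axis), with old brains left of young brains; points are single brains and bars the mean ± SD (n = 4 each). Only the Arg-TCT groups do not overlap, by a narrow margin, with old brains between 1.50 and 1.66% and young brains between 1.38 and 1.49%.

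In the fit across all 47 nuclear anticodons with enough reads, none of the 5 arginine anticodons passed an adjusted p of 0.05 in edgeR's quasi-likelihood test, against 6.38% of all anticodons (2.13% higher and 4.26% lower in old brains). At an unadjusted p below 0.05 there were 2 of 5, against 19.1% of all. These were Arg-CCT, at −0.30 ± 0.10 on the log2 scale (SE, adjusted p = 0.0921 in edgeR), and Arg-TCT, at 0.14 ± 0.06 (SE, adjusted p = 0.153 in edgeR). The median log2 change was −0.09 over the arginine anticodons and 0.01 over all anticodons. Arg-CCT did pass without old female 2 (edgeR adjusted p = 0.0259), and it also passed with DESeq2, where the adjusted p was 0.0348. The share of all anticodons called in those fits is not given here.

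No reader in the CGN box had an unadjusted p below 0.05. Arg-ACG took 2.67, 2.68, 2.12 and 2.86% of nuclear reads in old brains and 2.78, 2.72, 2.69 and 2.79% in young brains. Old female 1 was the lowest of all, and without old female 2 every old brain lay below every young brain (exact permutation p = 0.0286). The log2 change was −0.09 (SE 0.08, edgeR adjusted p = 0.488). Arg-CCG had a log2 change of −0.21 (SE 0.14) and Arg-TCG one of 0.03 (SE 0.10). Old and young groups overlapped for all 3.

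Only Arg-TCG and Arg-TCT were resolved into more than 1 transcript, and of these Arg-TCT-1 was higher in old brains. It took 0.696, 0.621, 0.720 and 0.727% of nuclear reads in old brains, against 0.580, 0.556, 0.552 and 0.533% in young brains. Every old brain was above every young brain, as in 15.2% of all transcripts. Its log2 change was 0.31 (SE 0.07, edgeR adjusted p = 0.0193), the largest estimate upward among the 66 transcripts tested. It was the 1 called transcript of 7, against 9.09% of all transcripts called in either direction and 4.55% called higher in old brains. At an unadjusted p below 0.05 there were 2 of 7, Arg-TCT-1 and Arg-CCT-1, against 21.2% of all. Without old female 2, Arg-CCT-1 was called as well, with a log2 change of −0.38 (edgeR adjusted p = 0.0308). The share of all transcripts called in that fit is not given here.

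The other form, Arg-TCT-3, was not called. It took 0.883, 0.857, 0.914 and 0.904% of nuclear reads in old brains and 0.782, 0.875, 0.918 and 0.940% in young brains, and its log2 change was 0.02 (SE 0.07, edgeR adjusted p = 0.872). The groups overlapped widely. Arg-TCT-1 thereby made up 44.1, 42.0, 44.1 and 44.6% of Arg-TCT reads in old brains and 42.6, 38.9, 37.6 and 36.2% in young brains (exact permutation p = 0.0571). In edgeR the call of Arg-TCT-1 was lost without old male 1 (adjusted p = 0.0639), without young female 1 (0.0729) and without young female 2 (0.0511). Its log2 change stayed between 0.29 and 0.36 over the 8 fits that each lacked a brain.

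**Figure D2:**
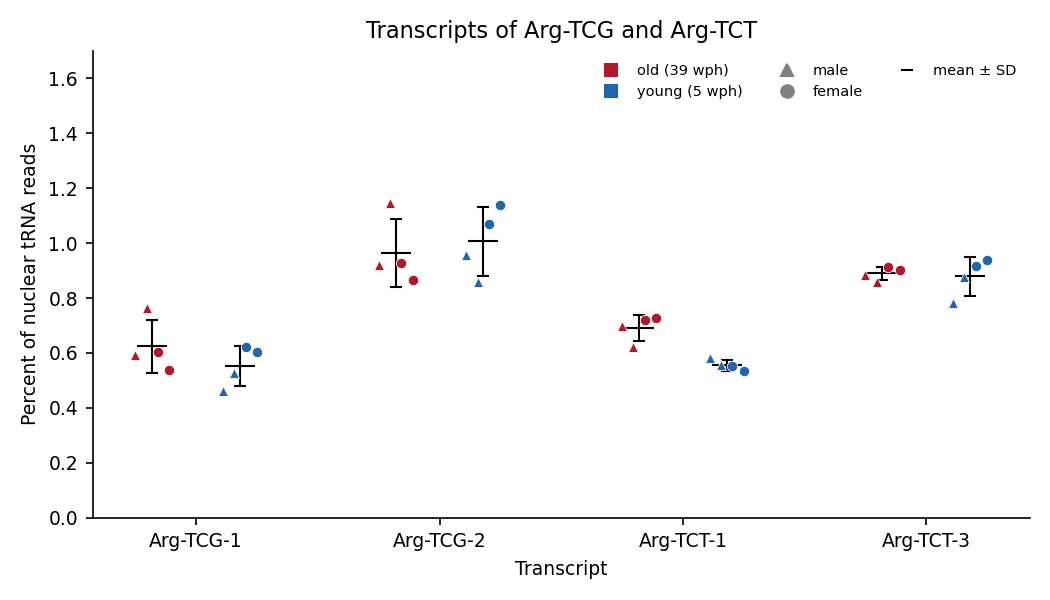
Percent of nuclear tRNA reads (y axis) for the transcripts of Arg-TCG and Arg-TCT (x axis), with old brains left of young brains; points are single brains and bars the mean ± SD (n = 4 each). Arg-TCT-1 averages 0.691% in old and 0.556% in young brains with no overlap, while the groups of Arg-TCT-3 overlap at 0.890% and 0.879%.

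The transcripts of Arg-TCG also shifted relative to each other, though neither passed the test alone. The log2 change was 0.17 ± 0.13 (SE) for Arg-TCG-1 and −0.06 ± 0.11 for Arg-TCG-2, with adjusted p-values of 0.437 and 0.732 in edgeR. Arg-TCG-1 was 39.1, 40.0, 39.4 and 38.3% of Arg-TCG reads in old brains, against 32.6, 38.1, 36.7 and 34.6% in young brains. The lowest old brain lay just above the highest young brain (difference 3.70 percentage points, exact permutation p = 0.0286, and 0.0571 without any 1 of the old brains). The read ratio did not overlap between the ages in 15.0% of the 20 transcript pairs that share a nuclear anticodon. This share was followed up after its values had been seen.

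The arginine anticodons differed in charging within every brain. Arg-TCT had charged shares of 49.5, 55.0, 37.4 and 71.8% in old brains and 69.1, 65.8, 69.6 and 67.2% in young brains. Arg-CCG was close to it, with 47.6, 56.8, 41.6 and 69.9% in old brains and 68.3, 65.3, 69.3 and 66.7% in young brains. Arg-ACG, the most abundant member, had 34.5, 41.4, 31.8 and 50.2% in old brains and 56.4, 47.5, 56.2 and 48.6% in young brains. Arg-ACG and Arg-TCG held the lower 2 places and Arg-CCT stood in between, except in old female 1, where Arg-CCT was second. On this share, the order Arg-TCT, Arg-CCG, Arg-CCT, Arg-TCG, Arg-ACG from high to low was found in all 4 young brains and in old female 2.

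**Figure D3:**
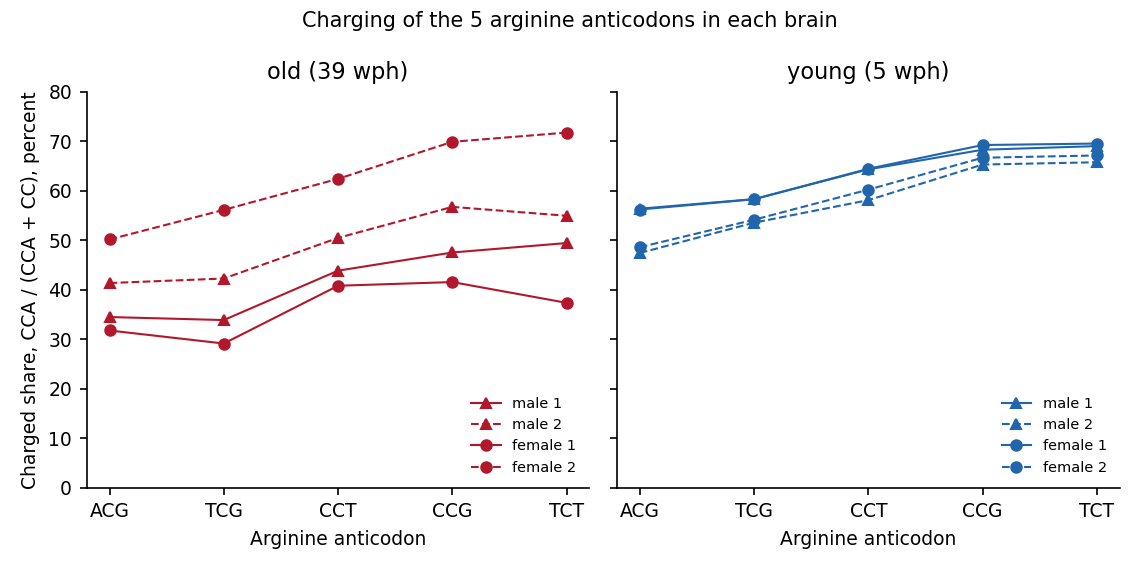
Charged share, CCA as a percent of CCA plus CC reads (y axis), of the 5 arginine anticodons (x axis) in old brains (left) and young brains (right), with a line for each brain. Young brains run in a narrow band that ends between 65.8 and 69.6% at Arg-TCT, and old brains spread from 37.4 to 71.8% there.

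Of the 10 pairs of anticodons, 8 differed in log2 odds of a CCA end over the 8 brains (exact sign-flip test, adjusted over the 10 pairs). In 7 of these the direction held in 8 of 8 brains, with an exact sign-flip p of 0.00781, the smallest this test allows, and an adjusted p of 0.0112. Arg-ACG differed by −0.90 from Arg-CCG, by −0.90 from Arg-TCT and by −0.58 from Arg-CCT in mean log2 odds. The other pairs with that p were Arg-CCG above Arg-TCG by 0.76, Arg-CCG above Arg-CCT by 0.31, Arg-TCG against Arg-TCT with −0.76 and Arg-TCG against Arg-CCT with −0.45. Arg-CCT against Arg-TCT gave −0.32 (exact sign-flip adjusted p = 0.0195). As a percent of all reads of the tRNA, other 3′ ends included, CCA ends were more common on Arg-CCG than on Arg-TCT in every brain. They averaged 47.9 and 41.2% in old brains and 63.1 and 59.9% in young brains. On the same scale Arg-ACG was above Arg-TCT in old female 1, at 23.49 against 20.38%, and below it in every other brain. Arg-CCT, at 23.55%, was barely above Arg-ACG in old female 1. In log2 odds of CCA against CC, neighbours at either end of the order were not told apart. Arg-ACG and Arg-TCG differed by −0.14 ± 0.19 (SD, n = 8, exact sign-flip adjusted p = 0.122), and Arg-CCG and Arg-TCT by −0.0014 ± 0.12 (SD, n = 8, exact sign-flip p = 0.984).

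Grouped by codon box, the summed AGR readers had a higher charged share than the summed CGN readers by 10.3 ± 2.29 percentage points (SD, n = 8), in 8 of 8 brains (exact sign-flip p = 0.00781). The gap did not hold for every member. The CGN reader Arg-CCG was above the AGR reader Arg-CCT in 8 of 8 brains and was not told apart from Arg-TCT. With other 3′ ends in the denominator, CCA ends averaged 38.7% on AGR and 32.4% on CGN readers in old brains. In young brains they averaged 55.7 and 48.6%, and in old female 1 they were 21.5 and 20.9%. The gap in charged share was 0.444 points wider in old brains, less than the spread between brains (exact permutation p = 0.83). None of the 10 pairwise differences changed with age after adjustment. At an unadjusted exact permutation p below 0.05 there was 1, Arg-CCG over Arg-TCG, which was 0.13 wider in old brains on the log2 odds scale (p = 0.0286, adjusted p = 0.286).

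Arg-ACG and Arg-TCG were among the less charged tRNAs of the brain at both ages, while the other arginine anticodons spread more widely. Summed arginine reads had a lower charged share than the other nuclear tRNAs in 8 of 8 brains, with a difference of −7.84 ± 3.20 percentage points (SD, n = 8, exact sign-flip p = 0.00781). Among the 47 nuclear anticodons, counted from the least charged, Arg-ACG ranked between 1 and 5 in every brain and Arg-TCG 2 to 11. Arg-CCT ranked 7 to 22, Arg-CCG 12 to 31 and Arg-TCT 11 to 35.

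The charged share of each arginine anticodon averaged lower in old brains, with differences from −15.7 to −12.4 percentage points, and none of these differences passed the test. Arg-TCG had the widest, with 33.9, 42.3, 29.2 and 56.2% in old brains and 58.3, 53.6, 58.3 and 54.2% in young brains (exact permutation p = 0.0857). Arg-CCT had 43.9, 50.5, 40.8 and 62.4% in old brains, against 64.4, 58.1, 64.5 and 60.3% in young brains (exact permutation p = 0.0857). In all 5 anticodons the 3 other old brains lay below every young brain. Old female 2 lay within the young range for Arg-ACG, Arg-TCG and Arg-CCT and above it for Arg-CCG and Arg-TCT.

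In edgeR the changes in log2 odds of charging were −0.76 for Arg-ACG (SE 0.37), −0.81 for Arg-CCG (SE 0.34), −0.94 for Arg-TCG (SE 0.39), −0.73 for Arg-CCT (SE 0.38) and −0.87 for Arg-TCT (SE 0.39), each with an adjusted p of 0.123. Thus 0 of 5 were called, against 2.13% of all anticodons, and 4 of 5 had an unadjusted p below 0.05, against 38.3% of all. Their median of −0.81 stood beside a median of −0.69 over all 47 anticodons. Counted from the widest fall among the 47, Arg-TCG ranked 2, Arg-TCT 3, Arg-CCG 4, Arg-ACG 9 and Arg-CCT 16. Without old female 2, all 5 were called with edgeR (adjusted p 0.000545 to 0.00631), as were 80.9% of all anticodons, and 7 of 7 transcripts were called, against 78.8% of all transcripts. The summed arginine charged share then differed by −18.4 points (exact permutation p = 0.0286, the smallest that 3 against 4 brains allow). The remaining old brains all lay below the young brains on this share, so leaving out old female 2 fixed that p in advance.

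The age difference of arginine was next set against that of the other tRNAs in the same brain. Relative to the median of the 42 other nuclear anticodons, the log2 odds of summed arginine were −0.66 ± 0.22 in old brains and −0.49 ± 0.12 in young brains (difference −0.16, exact permutation p = 0.314). The difference was −0.26 without old female 2 (exact permutation p = 0.0571) and −0.088 without old male 1 (exact permutation p = 0.457). Arg-TCG had the widest difference, with −0.94 ± 0.30 in old brains and −0.64 ± 0.16 in young brains (difference −0.30, exact permutation p = 0.114, and −0.43 with p = 0.0571 without old female 2). None of the 5 passed an exact p of 0.05, against 8.51% of all anticodons, each set against the median of the rest. The other tRNAs of basic amino acids had relative differences of −0.12 for Lys-CTT, −0.03 for Lys-TTT and 0.04 for His-GTG. With these brains the age change of arginine did not pass the test of a difference from the other tRNAs.

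**Figure D4:**
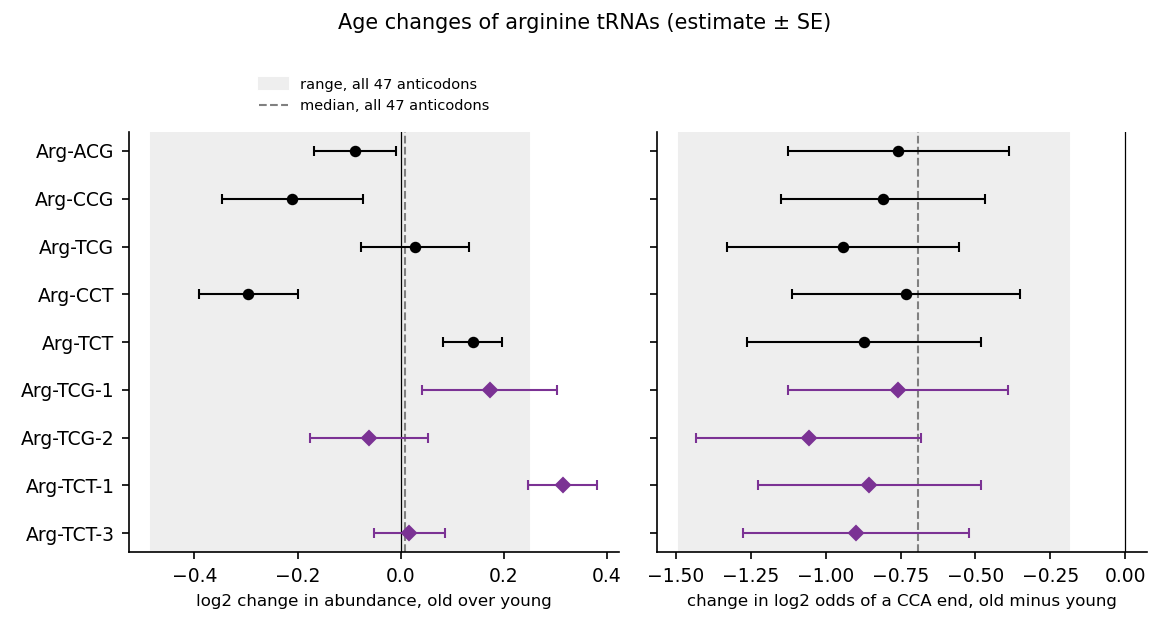
Age changes, old over young, of arginine tRNAs in abundance and in charging as log2 estimates ± SE from the edgeR fits (x axes), with anticodons (circles) and transcripts (diamonds) down the y axes, and the range (grey) and median (dashed) of all 47 anticodons. Only Arg-TCT-1 in abundance, at 0.31, is past an adjusted p of 0.05, and all charging estimates lie between −1.06 and −0.73. The grey range does not cover transcripts. Abundance changes of all 66 transcripts ran from −0.61 to 0.31, and the highest outside arginine was 0.29.

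Among the transcripts, Arg-TCG-1 and Arg-TCG-2 also parted with age in the charged share, which leaves out reads ending in C. Arg-TCG-1 had charged shares of 37.8, 46.5, 34.3 and 58.1% in old brains and 59.8, 53.3, 59.5 and 55.5% in young brains. Arg-TCG-2 had 31.7, 39.8, 26.4 and 55.1% in old brains and 57.7, 53.7, 57.7 and 53.5% in young brains. Arg-TCG-1 exceeded Arg-TCG-2 by 6.05, 6.70, 7.93 and 3.02 percentage points in old brains, against 2.14, −0.419, 1.78 and 1.95 points in young brains. Every old brain had the wider gap, old female 2 included (exact permutation p = 0.0286, and 0.0571 without any 1 of the young brains). In log2 odds, a different scale on which this gap did not overlap either, the groups did not overlap in 10% of the 20 transcript pairs sharing a nuclear anticodon. This gap was followed up after its values had been seen, so its p describes these brains and is not an independent test. C ends were more common on Arg-TCG-1 than on Arg-TCG-2 in every brain, averaging 33.9 and 26.5% in old and 18.4 and 13.2% in young brains. In old female 1, with the widest old gap, CCA reads were 2162 of all 14279 for Arg-TCG-1 and 3046 of 21996 for Arg-TCG-2. In young male 1, with the widest young gap, they were 5582 of 11216 and 11808 of 23165. The gap over all ends was not tested. For the same tRNA, the edgeR changes in log2 odds were −0.76 for Arg-TCG-1 (SE 0.37) and −1.06 for Arg-TCG-2 (SE 0.38), both with an adjusted p of 0.124. For Arg-TCT-1 over Arg-TCT-3 the difference in log2 odds averaged 0.11 in old brains and 0.06 in young brains (exact permutation p = 0.743), and 0.08 ± 0.20 over the 8 brains (SD, exact sign-flip p = 0.297). With 0 of 7 transcripts called for charging in edgeR, against 1.52% of all, 6 of 7 had an unadjusted p below 0.05, against 31.8% of all.

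Abundance and charging together set how much of the charged tRNA in a brain was arginine tRNA. Arginine took 4.97, 5.36, 4.53 and 6.86% of nuclear CCA reads in old brains, against 6.28, 6.34, 6.68 and 6.86% in young brains. Old female 2 lay with the young brains and the other old brains lay below them (difference −1.11 percentage points, exact permutation p = 0.114). When old female 2 was left out, it came to −1.59 points (exact permutation p = 0.0286). By anticodon the mean was lower in old brains for all 5, and 0 of 5 were free of overlap, against 14.9% of all anticodons. Arg-CCT had 0.784 ± 0.190% in old and 1.08 ± 0.0872% in young brains (exact permutation p = 0.0571, and 0.0286 without old female 2). Arg-TCT had 1.38 ± 0.296% in old and 1.47 ± 0.123% in young brains (exact permutation p = 0.657).

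Inside the charged arginine pool, the share of Arg-TCT was higher in old brains. It was 27.3, 24.3, 24.0 and 26.1% of arginine CCA reads in old brains, against 20.7, 23.8, 22.1 and 23.2% in young brains. Arg-TCT was the 1 of 5 arginine anticodons whose groups did not overlap on this scale, against 18.9% of the 37 anticodons that share their amino acid with another. The lowest old brain was only just above the highest young brain (difference 3.01 percentage points, exact permutation p = 0.0286). The p was 0.0857 without young male 1 and 0.0571 without old male 1, old female 2, young female 1 or young female 2.

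Reads with other 3′ ends are outside the charged share. Arginine reads ending in C, a base shorter than the uncharged form, made up 21.1, 21.7, 34.8 and 9.80% in old brains, against 9.42, 12.3, 11.5 and 13.1% in young brains. The other 3 old brains were above all young brains, and old female 2 lay within the young range (difference 10.3 percentage points, exact permutation p = 0.114). Without old female 2 it was 14.3 points (exact permutation p = 0.0286). The other nuclear tRNAs moved the same way, with C ends of 13.4 ± 7.39% in old and 6.90 ± 2.05% in young brains (exact permutation p = 0.0857). Their difference was 8.80 points without old female 2 (exact permutation p = 0.0286). Whether the age difference in C ends was larger for arginine was not tested. By anticodon the C ends ranged from 10.8 ± 5.24% for Arg-CCG to 29.4 ± 13.7% for Arg-TCG in old brains, and from 5.64 ± 0.916% for Arg-CCG to 16.2 ± 1.36% for Arg-CCT in young brains. C ends were more common on summed arginine reads than on other nuclear tRNAs in 8 of 8 brains, by 6.57 ± 3.08 points (exact sign-flip p = 0.00781). Arg-CCG went the other way, with a mean below that of the other nuclear tRNAs at both ages. The spike-in was a synthetic E. coli tRNA-Lys added after oxidation, mixed from CCA and CC forms to hold 75% CCA. It had 1.72% C ends at both ages. Its CCA ends made up 73.9 ± 1.02% in old brains and 72.3 ± 0.669% in young brains, with no overlap (exact permutation p = 0.0286). As a percent of its CCA plus CC reads they were 78.8 ± 1.14% in old and 77.2 ± 0.468% in young brains (exact permutation p = 0.0571). Scaled so that the spike-in stood at its designed 75%, the arginine charged share was 42.9 ± 10.4% in old brains and 56.9 ± 3.27% in young brains (exact permutation p = 0.0857). The part of C ends in the charging differences was not tested. With all 4 end classes in the denominator, arginine reads ending in CCA were 34.6 ± 13.1% in old brains and 51.1 ± 3.70% in young brains (exact permutation p = 0.0857), and they differed by −22.4 points once old female 2 was left out (exact permutation p = 0.0286).

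**Figure D5:**
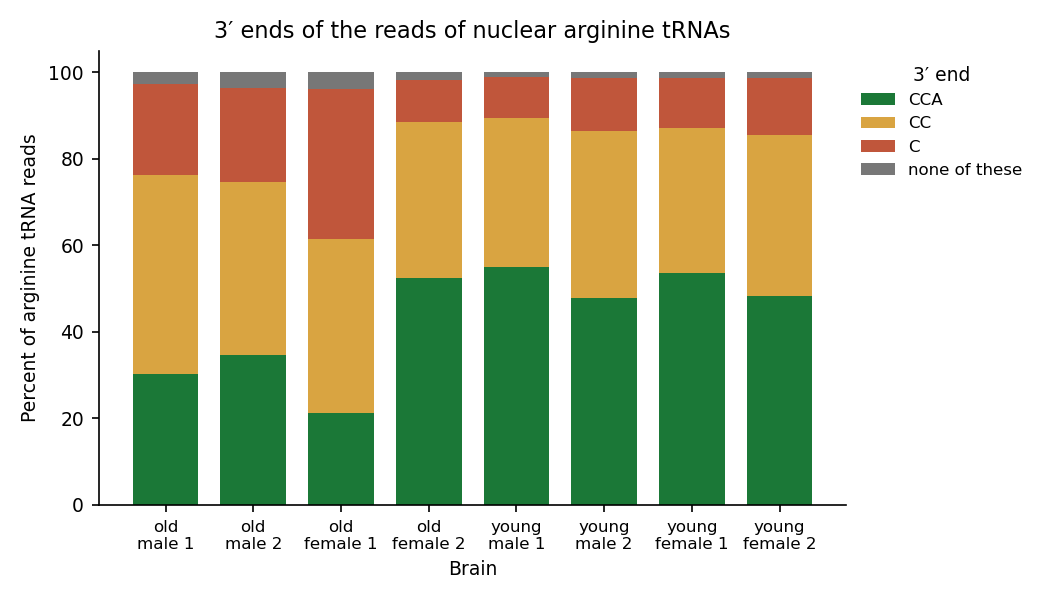
Percent of nuclear arginine tRNA reads (y axis) by 3′ end, stacked for each brain (x axis), with old brains left of young brains. C ends take 21.1 to 34.8% in 3 old brains and 9.80% in old female 2, against 9.42 to 13.1% in young brains.

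Arginine reads with none of the CCA, CC and C ends were few. They were 2.74, 3.59, 3.82 and 1.72% in old brains, against 1.15, 1.26, 1.29 and 1.39% in young brains, with every old brain above every young brain (exact permutation p = 0.0286, and 0.0571 without any 1 of the young brains). The groups did not overlap in 5 of 5 arginine anticodons, against 40.4% of all nuclear anticodons. The other nuclear tRNAs moved the same way, with 2.91 ± 1.69% in old and 1.43 ± 0.204% in young brains (exact permutation p = 0.0571). Whether the age difference in these ends was larger for arginine was not tested. Arginine did not differ from the other nuclear tRNAs in these ends beyond the spread between brains (difference −0.0525 points, exact sign-flip p = 0.719).

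The mitochondrial arginine tRNA, mt-Arg-TCG, had charged shares of 80.7, 78.0, 81.7 and 77.9% in old brains and 82.2, 75.9, 82.4 and 75.9% in young brains. The ages overlapped fully (difference 0.474 percentage points, exact permutation p = 0.771). Over all 3′ ends, its CCA ends averaged 62.1 ± 2.27% in old and 66.0 ± 5.80% in young brains (exact permutation p = 0.314). Its C ends averaged 13.7 ± 1.87% in old and 10.6 ± 2.41% in young brains (exact permutation p = 0.114). In charged share, mt-Arg-TCG exceeded the nuclear arginine tRNAs in 8 of 8 brains, by 27.5 ± 11.1 points (exact sign-flip p = 0.00781). This gap averaged 34.6 points in old brains and 20.5 points in young brains (exact permutation p = 0.143).

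Males had an old minus young difference of −15.2 points in the arginine charged share, and females one of −12.1 points. With 2 brains of each sex and age, the difference between the sexes was −3.14 points (exact permutation within sex, p = 0.944). In males the AGR percent of arginine reads differed by −1.61 points between old and young brains, and in females by 2.28 points (exact permutation within sex, p = 0.0556, the smallest this design allows). Several measures were compared between the sexes in this way, without adjustment. Arg-TCG reads are in the denominator of the AGR percent, so it is not separate from the sex difference of Arg-TCG given below.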

How the data were processed

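The authors isolated RNA under mildly acidic conditions, which keep amino acids on their tRNAs, then oxidized it and removed the exposed last base of uncharged tRNAs. They added an E. coli tRNA-Lys spike-in, ligated barcoded adapters, trimmed reads with cutadapt 3.5 and counted them with mim-tRNAseq 1.3.8. The column names give a cluster identity of 0.97, higher than the value in the methods, so the clusters may differ from those described. The authors deposited raw counts of reads, without normalization, per anticodon and per transcript and 3′ end. Transcripts too alike to separate stay together, and a read placed on a sister transcript would move both.

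Here all nuclear tRNAs were fitted and the arginine rows read from the fit, in R 4.3.3 with edgeR 4.0.16 (quasi-likelihood test, TMM, age as the only factor, at least 10 counts in at least 4 brains). Charging was fitted on CCA and CC counts with an effect for each brain, for tRNAs with at least 100 such reads in every brain. Adjusted p-values are Benjamini-Hochberg values over all anticodons or transcripts, and the threshold was 0.05. Single values were compared in Python 3.11.15 with scipy 1.17.1, by two-sided exact permutation tests over 70 relabellings and, within brains, by sign-flip tests over 256 patterns. Log2 odds had 0.5 added to each count. Age, sex and replicate numbers came from the labels. Alternatives were DESeq2 1.42.0, limma 3.58.1, other filters and scalings, mitochondrial tRNAs in the fit, all end classes, the spike-in, a replicate block, and leaving out each brain. The scripts were tested on simulated data whose noise was independent between tRNAs. That checks the code and not the error rates where a library shifts many tRNAs together. Named tRNAs were every arginine anticodon and transcript, the mitochondrial arginine tRNA, lysine and histidine anticodons, and the 3 anticodons most like arginine. The members, lists and tests were chosen with earlier results of these data known.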

Additional observations from a re-analysis of the deposited data

Results flagged for a closer look

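In 2 groups of 4 brains, a brain stood apart from the other 3, out of 176 groups examined, where chance alone gives about 1 in 20. The AGR readers together took 2.86% of nuclear reads in old female 2, against 2.54, 2.54 and 2.59% in the other old brains. The charged share of Arg-TCG-1 minus that of Arg-TCG-2 was −0.419 percentage points in young male 2, against 2.14, 1.78 and 1.95 points in the other young brains.

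For 4 arginine tRNAs the age difference in percent of nuclear reads ran in opposite directions in males and females. Arg-TCG is made up of Arg-TCG-1 and Arg-TCG-2, so these are not separate observations. How many other nuclear tRNAs did so is not given here, so the count is not a result about arginine. For Arg-TCG it was 0.311 percentage points in males and −0.250 in females (difference 0.560, exact permutation within sex, p = 0.0556, the smallest possible with 2 brains of each sex and age). For Arg-TCG-1 it was 0.183 points in males and −0.0416 in females (difference 0.224, exact permutation p = 0.0556). For Arg-TCG-2 it was 0.126 points in males and −0.207 in females (difference 0.333, exact permutation p = 0.111), and for Arg-TCT-3 it was 0.0417 in males and −0.0199 in females (difference 0.0616, exact permutation p = 0.222).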

How the results depend on the processing

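Of 557 recomputed values, 484 kept their direction and their side of the threshold. In abundance, 0 arginine anticodons were called, against 1 with DESeq2 and 1 with mitochondrial tRNAs in the fit, and 0 to 1 when each brain was left out. For transcripts 1 was called, against 2 with mitochondrial tRNAs in the fit, 0 with the replicate block (Arg-TCT-1, edgeR adjusted p = 0.0692) and 0 to 2 with a brain left out. The shares of all anticodons and transcripts called in these other abundance fits are not given here. The counts are therefore not a result about arginine. For charging, 0 to 5 anticodons and 0 to 7 transcripts were called with a brain left out, the higher counts without old female 2.

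With each brain left out in turn, the age difference ran from −18.4 to −10.1 points for the arginine charged share, from −0.433 to −0.071 for arginine in nuclear reads, from −0.628 to 1.18 for the AGR percent of arginine reads, from −1.59 to −0.813 for arginine in nuclear CCA reads and from 5.94 to 14.3 for C ends. Relative log2 odds of arginine ran from −0.26 to −0.088. The sign also turned for Arg-ACG as a percent of arginine reads (−1.50 to 0.219) and for log2 abundance of Arg-TCG (−0.076 to 0.088), Arg-ACG-1 (−0.14 to 0.0046), Arg-TCG-2 (−0.16 to 0.0073) and Arg-TCT-3 (−0.036 to 0.053, and −0.0049 with mitochondrial tRNAs in the fit). The cause was not tested.

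Same-numbered brains are different fish, and their deviations in charging correlated at −0.283 to 0.793 over the pairs. These correlations cannot show whether brains of the same number shared a preparation. Old minus young in the arginine charged share was −21.6 points for male 1, −27.0 for female 1, −8.81 for male 2 and 2.88 for female 2. The mt-Arg-TCG charged share was 80.7 to 82.4% in brains numbered 1 and 75.9 to 78.0% in brains numbered 2. The cause was not tested. With the replicate block the arginine charged share differed by −13.6 points (exact sign-flip p = 0.25). That test cannot go below 0.125 with 4 pairs, so the exact comparisons lost their calls. Alternatives for the transcript shares within Arg-TCG and Arg-TCT, the Arg-TCG charging gap, the Arg-TCT shares and reads with none of the ends were chosen after seeing the data. Their exact p reached at most 0.0857 with a brain left out. Counting error reached at most 1.62 points to either side of an anticodon's charged share in a brain, against an SD between brains of 1.74 to 14.3 points.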

Other observations

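Among the 42 other nuclear anticodons, those whose charging varied most like summed arginine over the 8 brains, after the median log2 odds of each brain was removed, were Glu-CTC (Pearson r = 0.81), Cys-GCA (r = 0.75) and Ile-TAT (r = 0.64). These points share the libraries and the subtracted median. Among the arginine anticodons themselves r ran from 0.25 to 0.94 on that scale, with a median of 0.79.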
